A study of Oryza sativa with 12 samples.

Results

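A set of 193 rice genes was examined that were expressed at a moderate level in spikelets of the cultivar BR-IRGA 409 at 29 °C and were strongly higher there at 38 °C. Levels are CPM, counts per 1000000 gene counts of a library. A gene belonged to the set when its mean over the 3 BR-IRGA 409 control libraries was from 1 to below 20 CPM, its mean over the 3 heat libraries was at least 4 times that mean, and its lowest heat library lay above its highest control library. The rule was met by 193 of 57174 listed genes (0.338%). The members were thus chosen on the BR-IRGA 409 values, which are given below as a description without a test, as is every contrast that contains these libraries. The 6 libraries of the other cultivar, IRGA 428, took no part in the choice, and the heat response there is the comparison that was tested.

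The study profiled messenger RNA in spikelets from the middle of the panicle of flooded rice (Oryza sativa) at anthesis, when the florets open and shed pollen. Its 4 groups were BR-IRGA 409 (labelled heat tolerant) at 38 °C and at 29 °C, and IRGA 428 (labelled heat sensitive) at 38 °C and at 29 °C. The temperature was held for 7 h of the day on 3 days in growth chambers, after a greenhouse phase shared by all plants. Each group had 3 libraries with 2 plants pooled in each, so the spread between libraries is a spread between pools of plants, and no genetic change or other agent was applied.

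Plants that are heated make chaperones, which keep other proteins folded, under heat stress transcription factors that are themselves partly made on demand. Genes of this kind are commonly low at normal temperature and rise many times in heat. In rice, heat at anthesis is known for its harm to pollen shedding and fertilization. Whether the 193 genes belong to such pathways could not be looked up here: the deposited IDs (MH followed by digits) come without gene names, and a search of RefSeq's rice gene table found 0 of the 57174. No gene is therefore given a name or a role, and the tissue could not be checked against spikelet marker genes.

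Sequencing depth ran from 7.08 to 75.4 M (1 M is 1000000) gene counts per library. It went with temperature: the heat libraries of BR-IRGA 409 held 39.0 to 75.4 M and its control libraries 7.08 to 15.0 M, and in IRGA 428 the ranges were 16.5 to 27.0 M for heat and 8.88 to 16.4 M for control. In IRGA 428, heat 1 was closer to control 3 than to the other libraries of its own temperature: over log2(CPM + 1) of all genes tested Pearson's r between these libraries was 0.995, and over the members it was 0.954. Heat 2 and heat 3, which share a temperature, were about as close (0.992 over all genes tested and 0.968 over the members), while over the members r was 0.660 between heat 1 and heat 2 and 0.324 between control 2 and control 3. Whether the temperature labels of heat 1 and control 3 are right could not be settled from the files. The labels were kept, and every IRGA 428 fold change that includes these libraries rests on them. Control 1 stood apart for the members, with 91 of 193 under 10 counts. Results for this cultivar are therefore also given without these libraries. The labels do not say whether libraries were prepared or sequenced in batches. In bulk spikelets, a lower level can mean fewer cells that express a gene or less RNA per cell, and these cannot be told apart.

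In BR-IRGA 409 the 193 genes together took 7899, 5000 and 6482 CPM in heat 1, 2 and 3, against 999, 1212 and 754 CPM in control 1, 2 and 3. The median gene stood at 25.2, 17.0 and 21.0 CPM in the heat libraries and at 3.39, 4.01 and 2.48 CPM in the control libraries. The summed level was thus higher in each heat library than in any control library, as the rule requires of each gene. Heat 1 was the highest and heat 2 the lowest of the heat libraries for most members. Heat 1 was highest for 154 of the 193 genes and heat 2 lowest for 167, where over all 22321 genes tested these shares were 39.0% and 28.4%. Among the control libraries, control 2 was highest for 130 genes and control 3 lowest for 126, against 38.7% and 35.3% of all genes tested.

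**Figure D1:**
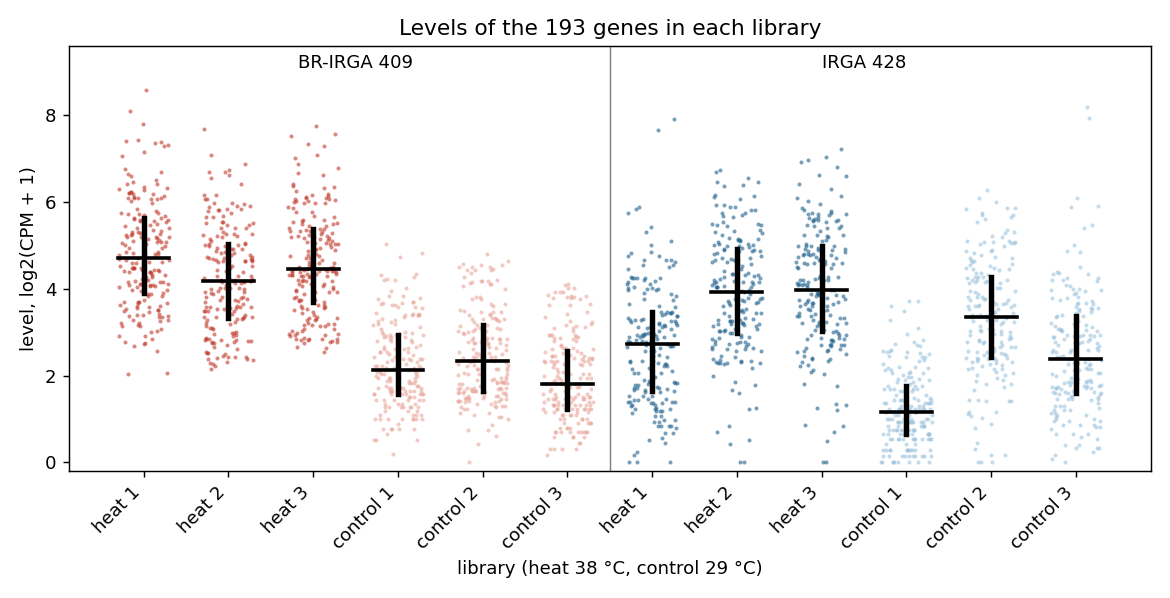
Level of each of the 193 genes in each library, as log2(CPM + 1), with 1 point per gene, the median as a horizontal bar and the middle 50% of genes as a vertical bar. In BR-IRGA 409 the medians correspond to 17.0 to 25.2 CPM in heat and 2.48 to 4.01 CPM in control, whereas in IRGA 428 the control libraries differ widely among themselves, with medians of 1.24, 9.21 and 4.23 CPM.

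The ratio of the heat mean to the control mean in BR-IRGA 409 ran from 4.03 to 51.0, with a median of 5.34. It was below 5 for 75 genes, at least 10 for 22 and at least 20 for 9. The median thus lay close to the lower bound of the rule, with a tail of much larger ratios. At 38 °C, 106 members averaged 20 CPM or more and 10 averaged 100 CPM or more. At the fold bound, MH08g0242500 was just inside (ratio 4.03, 24.0 against 5.94 CPM) and MH04g0299500 just outside (3.99959, 28.0 against 7.01 CPM). At the lower bound of the control level, MH02g0088500 averaged 1.00 CPM (inside) and MH09g0292500 averaged 0.981 CPM (outside), and at the upper bound MH08g0440300 averaged 19.0 CPM (inside) and MH05g0278000 averaged 20.1 CPM (outside). The condition on overlap left out 2 genes, and the nearer was MH01g0630200, whose lowest heat library had 2.51 CPM and highest control library 2.54 CPM. The member with the narrowest gap was MH11g0059000, with 4.39 CPM in its lowest heat library and 3.25 CPM in its highest control library.

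The 2 members with the largest ratio in BR-IRGA 409 were also uneven between its heat libraries. MH03g0740300 had 102, 25.6 and 75.2 CPM in heat 1, 2 and 3, against 3.39, 0.334 and 0.248 CPM in control 1, 2 and 3, a ratio of means of 51.0. MH10g0218000 had 276, 43.0 and 156 CPM in the heat libraries, against 8.62, 1.00 and 0.743 CPM in the control libraries, a ratio of 45.8. In both genes heat 2 was the lowest heat library and control 1 the highest control library by far, so that the gap between the groups was much narrower than the ratio of the means. The members that reached the highest mean at 38 °C were MH01g0456100, with 384, 45.3 and 162 CPM in heat against 11.0, 7.22 and 3.96 CPM in control, and MH04g0315800, with 168, 206 and 213 CPM in heat against 9.46, 7.09 and 13.0 CPM in control. The first of these differed many times between the heat libraries, and the second was nearly even.

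In IRGA 428, whose libraries the rule did not use, the same genes were mostly higher at 38 °C, by less than in BR-IRGA 409. All 193 members passed the filter on low counts, which was run on all 12 libraries, and were tested with edgeR among 22321 genes. With the filter and the fit on only the 6 IRGA 428 libraries, 189 members passed it, so 4 passed through the BR-IRGA 409 libraries, where they were chosen for being high. Of the 193, 192 had a positive log2 fold change (heat over control), against 49.3% of all genes tested. Their median log2 fold change was 1.13, or 2.18-fold, with the members' quartiles at 0.93 and 1.32, and the median over all genes tested was −0.00336. In the fit on only the IRGA 428 libraries, 188 of 189 members were positive (49.4% of all genes) and their median was 1.14. In the fit on all libraries, the fitted value was at least 2-fold higher in heat for 130 members (67.4%), against 3.44% of all genes tested. The fold changes are smaller than those in BR-IRGA 409, where the median was 2.49 on the log2 scale, but the members were selected for that size there.

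No member passed the test in IRGA 428: 0 of 193 had an edgeR adjusted p below 0.05, and of all genes 0.00% did (smallest adjusted p = 0.401). With DESeq2, 1 member passed, against 0.0514% of the genes that it gave an adjusted p, and with limma-voom 0 passed (0.00% of all genes). At an unadjusted p below 0.05, edgeR gave 50 members that were higher (25.9%), against 4.85% of all genes tested. It gave 0 members that were lower, against 1531 of the 22321 genes tested. The spread behind these p-values was estimated on all 12 libraries, and so partly on the BR-IRGA 409 libraries that the rule used. With only the IRGA 428 libraries, 16 of 189 members (8.47%) were higher at an unadjusted p below 0.05 in edgeR, against 2.41% of all genes. In that fit 0 were called (0.00% of all genes). With all 12 libraries, DESeq2 gave 73 higher members at that threshold, against 4.06% of 35234 genes, since it was run without the filter on low counts. Limma-voom gave 77, against 6.21% of the 22321 genes. The direction was thus shared by nearly the whole set, while for no single gene did the difference pass the edgeR test against the spread between libraries. The members are not independent replicates of one another, since all were measured in the same 6 libraries.

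**Figure D2:**
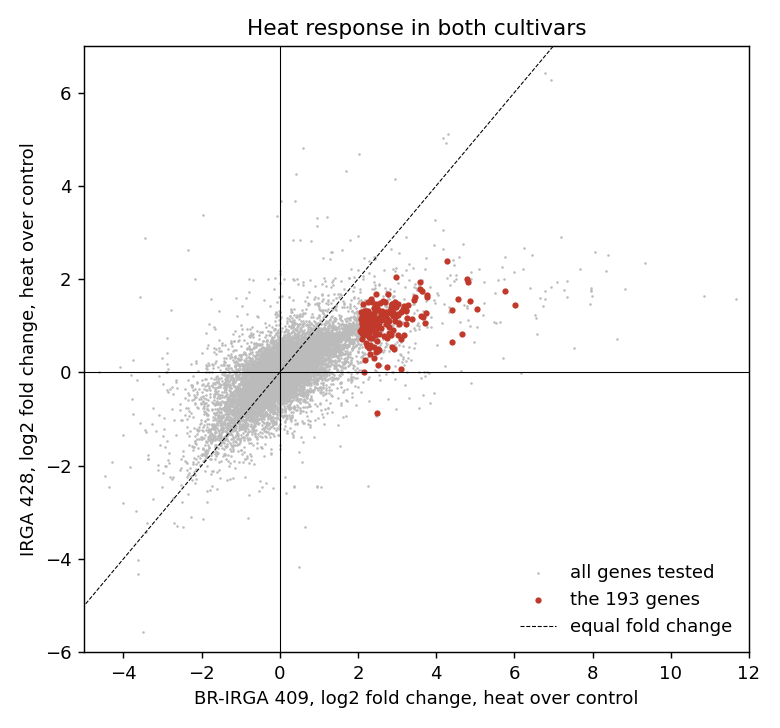
Log2 fold change at 38 °C over 29 °C in BR-IRGA 409 (horizontal axis) and in IRGA 428 (vertical axis), with the 193 genes in red and all 22321 genes tested in grey. The red points begin at 2.07 on the horizontal axis because the members were chosen for that response, and 192 of the 193 lie above 0 on the vertical axis, all of them below the line of equal fold change.

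The spread between IRGA 428 libraries was wide for these genes. Their median level was 5.63, 14.3 and 14.8 CPM in heat 1, 2 and 3, against 1.24, 9.21 and 4.23 CPM in control 1, 2 and 3. Heat 1 thus lay below control 2, and control 1 lay far below all other libraries. Control 1 was the lowest of the 6 libraries for 172 members, where it was lowest for 19.0% of all genes tested, and heat 3 or heat 2 was the highest for 100 and 70 members. The range of a gene over the 3 libraries of a group, on the log2(CPM + 1) scale, had a median over the members of 1.43 in IRGA 428 heat and 2.31 in its control. Over all genes tested these medians were 0.331 in heat and 0.490 in control. In BR-IRGA 409, where the rule bounds the spread, the range was 0.525 in heat and 0.750 in control for the members, and 0.280 in heat and 0.335 in control for all genes tested.

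Compared library by library, the order followed temperature except in 1 pair. Heat 2 was above control 1, 2 and 3 for 190, 170 and 176 of the 193 genes, and heat 3 for 188, 180 and 173. Heat 1 was above control 1 for 181 and above control 3 for 153, but above control 2 for 33. Over all genes tested, the corresponding shares ran from 38.2% to 52.0%. As a result, every heat library lay above every control library for 16 members (8.29%), against 4.05% of all genes tested, and for 1 member every heat library lay below, against 8.23% of all genes. Without control 2 the first count was 142 members (11.1% of all genes), without heat 1 it was 149 (14.1%), and without heat 1 and control 3 together it was 164 (23.0%).

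Single libraries also moved the number of members at an unadjusted p below 0.05 in edgeR. Higher members numbered 109 without heat 1 (8.46% of all genes), 17 without heat 2 (3.01%) and 13 without heat 3 (2.08%). They numbered 26 without control 1 (2.06%), 160 without control 2 (8.00%) and 33 without control 3 (12.2%), and 65 without control 3 and heat 1 (12.8%). The median log2 fold change of the members was 0.70 without control 1 and 1.97 without control 2, the lowest and the highest of these fits, and between 185 and 190 members had a positive sign when 1 IRGA 428 library was left out. Members called at an edgeR adjusted p below 0.05 numbered 11 without control 3 (5.70% of members, all higher), against 3.40% of all genes called higher. Without control 3 and heat 1 they numbered 12 (6.22%, all higher), against 2.64% of all genes called higher. In either direction, 6.68% of all genes were called without control 3, and 5.41% without control 3 and heat 1. Leaving out any other single library gave 0.

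Depth and mapping went with the level of these genes in IRGA 428. In heat 1, 2 and 3 the libraries held 16.5, 20.7 and 27.0 M gene counts, and in control 1, 2 and 3 they held 8.88, 16.4 and 15.8 M, so the library with the lowest member level was the shallowest. Reads with several alignments made up 4.12%, 4.62% and 4.90% of heat 1, 2 and 3, against 4.08%, 4.38% and 4.30% of control 1, 2 and 3. In BR-IRGA 409 these reads made up 5.00% to 5.34% of the heat libraries and 3.70% to 3.82% of the control libraries. With all libraries thinned at random to the smallest, 7078796 gene counts, 54 members were higher at an unadjusted p below 0.05 (5.04% of all genes) and 0 were called (0.00%). In that fit 190 had a positive log2 fold change (49.0% of all genes), and their median was 1.18 against −0.00560 over all genes. Random thinning leaves the expected CPM of each gene unchanged, so a median of similar size was set by the procedure and says nothing about depth. The part that depth or the share of reads with several alignments has in the level of the members was not tested.

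**Figure D3:**
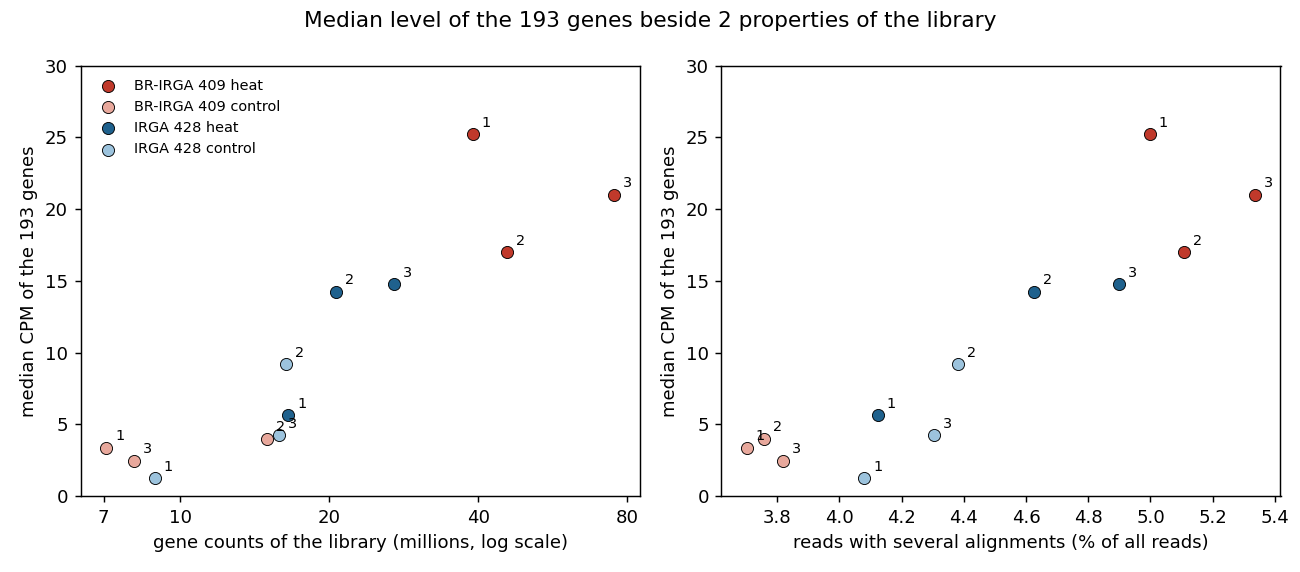
Median CPM of the 193 genes in each of the 12 libraries, against the gene counts of the library in units of 1000000 (left, log scale) and against the share of reads with several alignments in percent (right), with replicate numbers beside the points. Among the IRGA 428 libraries the median is lowest in control 1, the shallowest (8.88 M gene counts, 1.24 CPM), and highest in heat 3, the deepest (27.0 M, 14.8 CPM), whereas among the BR-IRGA 409 heat libraries the deepest, heat 3, is not the highest.

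The members did not all follow the same order of libraries. For 17 of them control 3 was above control 2 and heat 1 was above heat 2 and heat 3, the reverse of what the other 176 mostly showed. This grouping was made from the IRGA 428 values themselves and is a description. The median of the 17 was 13.4, 5.32 and 5.11 CPM in IRGA 428 heat 1, 2 and 3, against 1.35, 1.65 and 10.9 CPM in control 1, 2 and 3. The median of the other 176 was 5.36, 14.6 and 15.2 CPM in heat 1, 2 and 3, against 1.24, 10.1 and 3.92 CPM in control 1, 2 and 3. Control 1 was low in both groups of genes, while control 2 and control 3 stood in opposite order.

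The order of the BR-IRGA 409 heat libraries is given for the same 17 genes as a description, and the difference from the rest was not tested. Heat 1 was lowest for 11 of the 17 and for 6 of the 176, and heat 2 was lowest for 6 of the 17 and for 161 of the 176. Of the 11 members called without control 3, 9 were among the 17, and of the 12 called without control 3 and heat 1, 10 were. Since high values in control 3 helped to define the 17, their larger fold change without that library (median log2 value 3.84, against 1.00 for the other 176) follows in part from the choice.

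**Figure D4:**
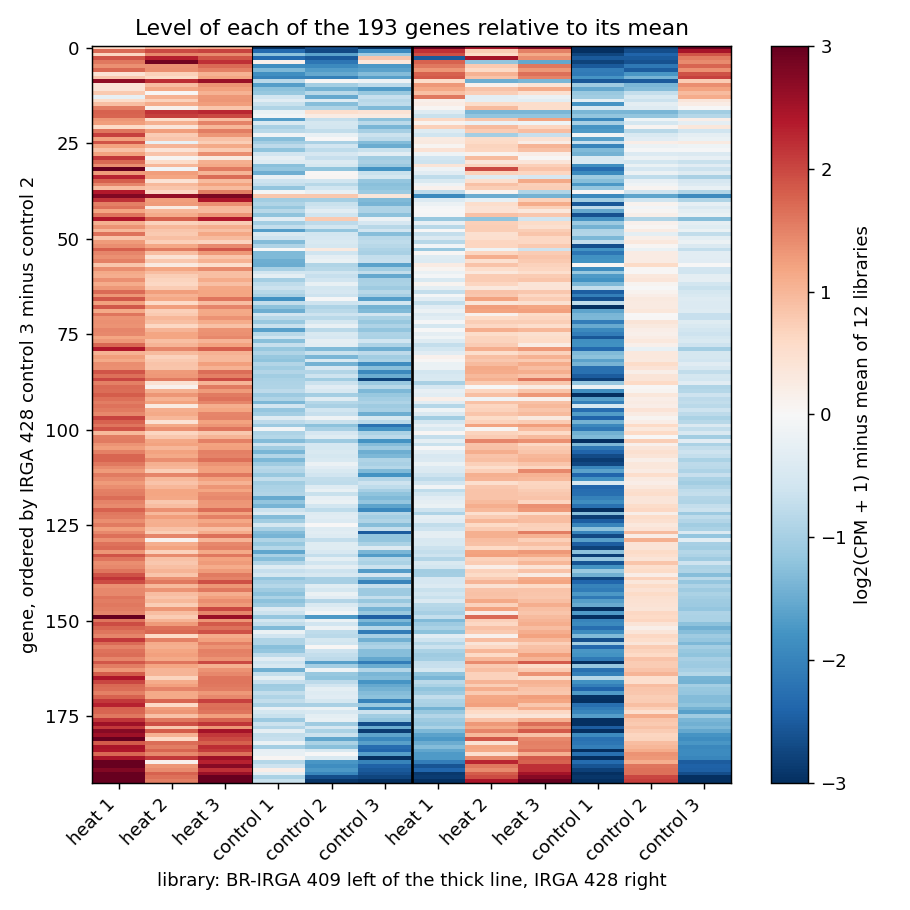
Level of each of the 193 genes (rows) in each library (columns), as log2(CPM + 1) minus the mean of that gene over the 12 libraries, with rows ordered by control 3 minus control 2 in IRGA 428. The few rows at the top include the 17 genes with control 3 above control 2 and heat 1 above heat 2 and heat 3 in IRGA 428. The remaining rows mostly show heat 2, heat 3 and control 2 above heat 1, control 3 and control 1.

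MH04g0315800 and MH01g0050800 belong to the 17. MH04g0315800 had 240, 87.8 and 148 CPM in IRGA 428 heat 1, 2 and 3, against 5.41, 7.26 and 291 CPM in control 1, 2 and 3. MH01g0050800 had 203, 105 and 131 CPM in heat 1, 2 and 3, against 1.13, 1.71 and 243 CPM in control 1, 2 and 3. In both genes 2 control libraries were low and control 3 was above every heat library. Their log2 fold changes were 0.65 (SE 1.12) and 0.83 (SE 1.31), with edgeR adjusted p-values of 0.816 and 0.796, and without control 3 they were 4.74 and 6.73, with adjusted p-values of 0.00261 and 0.000545. Over all 22 alternatives the edgeR, limma-voom or DESeq2 adjusted p ran from 0.00204 to 0.997 for MH04g0315800 and from 0.000524 to 0.989 for MH01g0050800.

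MH03g0740300, with the largest ratio in BR-IRGA 409, showed the other order. It had 0.182, 31.7 and 55.0 CPM in IRGA 428 heat 1, 2 and 3, against 0.113, 32.7 and 0.0632 CPM in control 1, 2 and 3. MH10g0218000 had 0.605, 81.6 and 124 CPM in heat, against 0.225, 63.3 and 0.758 CPM in control, in the same order of libraries. Both were near 0 in 3 libraries and high in the other 3, across temperatures, and their log2 fold changes of 1.45 (SE 1.53) and 1.75 (SE 1.64) did not pass (edgeR adjusted p = 0.68 and 0.641). Without control 2, the 1 control library in which they were high, the log2 fold changes were 8.46 and 7.01 (edgeR adjusted p = 0.257 for both). Over all 22 alternatives they ran from 0.57 to 8.46 for MH03g0740300, with adjusted p-values of 0.257 to 0.961, and from 0.98 to 7.01 for MH10g0218000, with 0.257 to 0.958.

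Among members whose IRGA 428 groups did not overlap, MH09g0390900 and MH03g0551400 had the largest fold changes. MH09g0390900 had 6.35, 31.4 and 13.9 CPM in IRGA 428 heat 1, 2 and 3, against 0.676, 4.82 and 4.23 CPM in control 1, 2 and 3 (log2 fold change 2.39, SE 0.94, edgeR adjusted p = 0.403). MH03g0551400 had 2.60, 6.91 and 7.89 CPM in heat, against 0.450, 1.65 and 2.08 CPM in control (log2 fold change 2.05, SE 0.47, edgeR adjusted p = 0.401). MH03g0551400 had the smallest unadjusted p among the members, 0.00123 in edgeR, and was the 1 member that DESeq2 called (DESeq2 adjusted p = 0.0345). It passed in 3 of 22 alternatives, with adjusted p-values between 0.0156 and 0.947 over them.

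At the other end, MH02g0168900 was the 1 member with a negative log2 fold change in IRGA 428. It had 0.908, 0.435 and 0.778 CPM in heat 1, 2 and 3, against 1.69, 1.10 and 1.39 CPM in control 1, 2 and 3, with every heat library below every control library (log2 fold change −0.88, SE 0.46, edgeR adjusted p = 0.442). These values rest on 15, 9 and 21 counts in heat and 15, 18 and 22 counts in control. MH06g0011300 had the next lowest fold change among the non-overlapping members, with 6.66, 5.32 and 5.52 CPM in heat against 2.59, 3.97 and 4.99 CPM in control (log2 fold change 0.64, SE 0.25, edgeR adjusted p = 0.401).

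**Figure D5:**
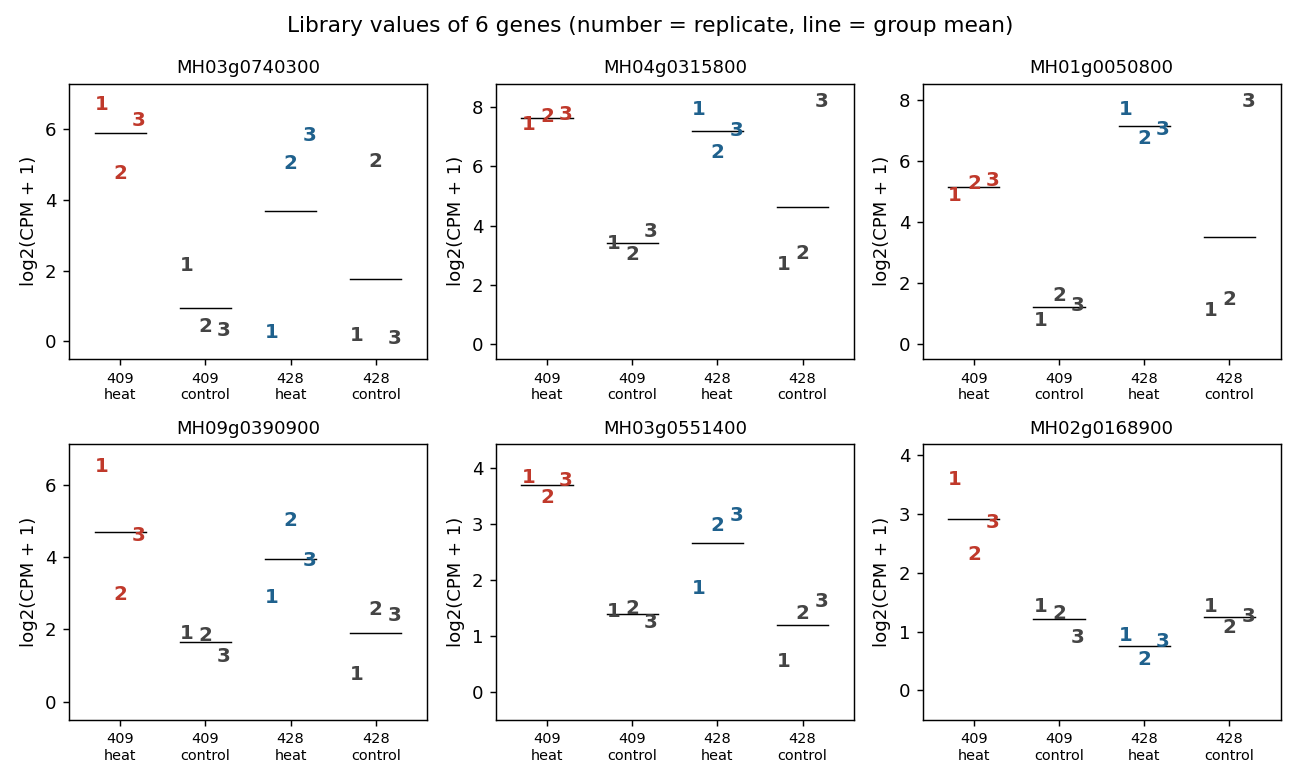
Library values of 6 of the genes, as log2(CPM + 1), for heat and control of BR-IRGA 409 (409) and of IRGA 428 (428), with the replicate number as the symbol and the group mean as a line. MH03g0740300 is near 0 in IRGA 428 heat 1, control 1 and control 3, MH04g0315800 and MH01g0050800 are high in IRGA 428 control 3, and in MH02g0168900 the IRGA 428 heat libraries lie below the control libraries.

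The median log2 fold change in IRGA 428 was larger for members with a larger ratio in BR-IRGA 409. For ratios from 4 to below 5 in BR-IRGA 409 (75 genes) the median log2 fold change in IRGA 428 was 1.01, for ratios from 5 to below 8 (85 genes) it was 1.15, and for ratios of 8 or more (33 genes) it was 1.37. The quartiles of the classes overlapped or met, at 0.86 to 1.20, 0.94 to 1.34 and 1.20 to 1.63. Across the 193 genes, Pearson's r between the log2 fold changes of the cultivars was 0.393 and Spearman's rho was 0.396, against 0.687 and 0.677 over all genes tested. The rule narrows the range of the members in BR-IRGA 409, and these values describe genes measured in the same libraries. Members higher at an unadjusted edgeR p below 0.05 in IRGA 428 ran the other way, with 23 of 75 (30.7%), 22 of 85 (25.9%) and 5 of 33 (15.2%). Over all genes tested the share was 4.85%. The spread behind these p-values is partly that of the BR-IRGA 409 libraries, whose values also set the classes. The order of these 3 shares can therefore follow in part from the choice, and it was not tested. By starting level the medians were close: members with a control mean in BR-IRGA 409 from 1 to below 3 CPM (86 genes), from 3 to below 8 CPM (70) and from 8 to below 20 CPM (37) had medians of 1.12, 1.13 and 1.15 in IRGA 428.

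The 75 genes that met the same conditions from a control mean of 20 CPM or more are set beside the members for IRGA 428. All 75 had a positive log2 fold change there, with a median of 1.19 against 1.13 for the 193, and 10 of them (13.3%) had an unadjusted p below 0.05 against 25.9% of the 193. The 10085 genes tested that had the control level of the members and were not members had a median of −0.0149 there, and 47.7% were positive. These differences between gene sets were not tested.

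Set against each other by cultivar, the group means of most members were lower in BR-IRGA 409 than in IRGA 428 at 29 °C and higher at 38 °C. The median of the group means was 21.6 CPM in BR-IRGA 409 and 11.3 CPM in IRGA 428 at 38 °C, and 3.33 CPM in BR-IRGA 409 and 5.16 CPM in IRGA 428 at 29 °C. The fitted log2 difference, BR-IRGA 409 minus IRGA 428, had a median of 0.97 at 38 °C, where 187 of 193 were positive, and of −0.48 at 29 °C, where 169 were negative. Both directions are favoured by a rule that asks for a low control and a high heat level in BR-IRGA 409, so they carry no test. The direction at 29 °C was also not shared by all IRGA 428 control libraries. The median gene stood at 1.24, 9.21 and 4.23 CPM in IRGA 428 control 1, 2 and 3. In BR-IRGA 409 control 1, 2 and 3 it stood at 3.39, 4.01 and 2.48 CPM. IRGA 428 control 1 thus lay below every BR-IRGA 409 control library. In IRGA 428, 63 members averaged 20 CPM or more at 38 °C and 20 did so at 29 °C. Averages below 1 CPM were found for 6 members at 38 °C and 6 at 29 °C, not all of them the same genes.

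A few members differed between the cultivars far more than the rest. MH12g0324700 had 24.6, 22.1 and 25.4 CPM in BR-IRGA 409 heat and 5.51, 5.55 and 3.84 CPM in its control, against 0, 7 and 11 counts in IRGA 428 heat and 0, 4 and 0 counts in IRGA 428 control (log2 differences of 6.52 at 38 °C, SE 0.56, and 5.67 at 29 °C, SE 0.72). MH08g0325800 had 7.79, 10.6 and 11.5 CPM in BR-IRGA 409 heat and 1.27, 2.74 and 2.48 CPM in its control, while IRGA 428 had 16, 0 and 0 counts in heat and 0, 0 and 4 counts in control (log2 differences of 5.24 and 4.50). MH08g0527800, with 6.53, 8.45 and 7.98 CPM in BR-IRGA 409 heat and 7, 0 and 0 counts in IRGA 428 heat, differed by 6.07 at 38 °C. These genes were at or near 0 in IRGA 428, where the reads of both MH08 genes came from heat 1 and control 3 alone, so their fold changes in that cultivar rest on few counts.

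In the other direction, MH01g0050800 and its neighbour in the ID order, MH01g0050700, were the members with the lowest difference at 38 °C, and MH01g0050800 and MH04g0315800 at 29 °C. MH01g0050800 had 27.8, 37.3 and 39.6 CPM in BR-IRGA 409 heat and 0.706, 2.01 and 1.36 CPM in its control, and it exceeded that heat level in all 3 IRGA 428 heat libraries (log2 difference −1.99 at 38 °C, SE 1.34). MH01g0050700 had 14.8, 18.0 and 23.0 CPM in BR-IRGA 409 heat and 2.26, 3.01 and 3.72 CPM in its control, against 38.8, 22.9 and 35.6 CPM in IRGA 428 heat and 1.69, 2.50 and 43.1 CPM in IRGA 428 control (log2 difference −0.73 at 38 °C, SE 0.87). At 29 °C the log2 differences of −5.83 for MH01g0050800 (SE 1.77) and −3.38 for MH04g0315800 (SE 1.26) came from control 3 of IRGA 428, since its control 1 and 2 stood at the level of BR-IRGA 409.

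The fold change in BR-IRGA 409 exceeded that in IRGA 428 for all 193 members, by 0.67 to 4.57 on the log2 scale with a median of 1.45. The selection of large changes in BR-IRGA 409 favours this sign, and the difference was therefore not tested. It was largest for MH03g0740300 (4.57, SE 2.55) and MH10g0218000 (4.02, SE 2.50), the members with the largest standard errors of this difference, and smallest for MH11g0124300 (0.67, SE 0.86) and MH08g0325800 (0.74, SE 2.11). MH11g0124300 had 7.07, 5.09 and 5.36 CPM in BR-IRGA 409 heat against 0.424, 2.47 and 0.991 CPM in its control, and 3.15, 4.01 and 3.74 CPM in IRGA 428 heat against 0.113, 1.71 and 2.02 CPM in its control, so that heat lay above control in both cultivars without overlap.

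By the digits after MH, read here as a chromosome number that the files do not state, the members were spread over all 12 numbers. The largest numbers were 26 on chromosome 1 and 23 on chromosome 8, and the smallest was 3 on chromosome 9. As a share of the genes tested on a chromosome, the members made up 1.65% on chromosome 8 and 0.256% on chromosome 9, with 0.865% over all genes tested and 0.679% to 1.08% on the other 10. The median log2 fold change in IRGA 428 was 1.01 for the 23 genes of chromosome 8 and between 1.02 and 1.53 for those of the other numbered chromosomes, and 1 member has an ID with UN in place of a number. Whether the shares differ between chromosomes was not tested.

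Members were mostly not next to each other in the order of the IDs. There were 4 pairs of neighbours, and no run of neighbours held more than 2 members. Over all chromosomes, a member and the next one were at most 5 IDs apart in 12 cases, these 4 included. How many such cases a random choice of genes would give was not worked out, so closeness in the ID order was not tested. The pairs of neighbours were MH01g0050700 with MH01g0050800, MH05g0162000 with MH05g0162100, MH06g0642400 with MH06g0642500, and MH07g0461900 with MH07g0462000. In IRGA 428 the log2 fold changes of the pairs were 1.03 and 0.83, 1.12 and 1.74, 1.61 and 1.23, and 0.72 and 0.73. All were positive, as were those of 192 of the 193 members, so the shared sign says nothing about neighbours. The first pair was high in IRGA 428 control 3 and the other 3 pairs had control 2 as their highest control library. Control 2 was the highest control library for 164 of the 193 members. Reads with several alignments were left out by the counting, which makes the level of any member with a near-identical copy uncertain.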

How the data were processed

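The authors deposited 1 table of raw counts per library, with 57174 gene IDs and 5 closing lines that were left out of library sizes and tests (their shares of reads were 6.04% to 10.3% without a feature, 0.0301% to 0.0326% ambiguous, 10.1% to 10.9% not aligned and 3.70% to 5.34% with several alignments). Trimmomatic 0.33, HISAT2 2.05 and HTSeq 0.6.1 are named per the submitters' processing notes; for the genome build, parameters and strand setting, the entry is: not given in the sources used here. From the deposited counts, CPM was computed on the sum of gene counts, and the rule was applied to it. Heat was tested in IRGA 428 with edgeR 4.0.16 (limma 3.58.1, R 4.3.3): quasi-likelihood test, robust, TMM scaling, filterByExpr, all 12 libraries with 1 mean per group (8 residual degrees of freedom), Benjamini-Hochberg adjustment over 22321 genes. The procedure was tested on simulated data. Each p-value sets a difference against the spread between libraries, which the main fit estimated on all 12 libraries of both cultivars. Each SE (standard error) was worked back from the log2 fold change and the edgeR test statistic, so it is approximate. For contrasts with BR-IRGA 409 libraries it is given as a description only. Alternatives included DESeq2 1.42.0 and limma-voom, other scalings and filters, single libraries left out, the replicate number as a block, and thinning to 7078796 counts.

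The members and lists were chosen with earlier results of these data known. IDs, at most 2 per direction and comparison, were named by extreme ratio, level, fold change (among members whose IRGA 428 groups did not overlap), cultivar difference and difference of fold changes, with those nearest each bound of the rule and the neighbouring pairs. MH02g0168900 also stands out as the 1 negative member.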

Additional observations from a re-analysis of the deposited data

Results flagged for a closer look

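MH02g0168900 had fold changes of opposite sign in the cultivars. Its log2 fold change in IRGA 428 was −0.88, and each of the 3 heat libraries (0.908, 0.435 and 0.778 CPM) lay below each of the 3 control libraries (1.69, 1.10 and 1.39 CPM). In BR-IRGA 409, where it was chosen for being higher in heat, it had 11.0, 3.93 and 6.19 CPM in heat, against 1.70, 1.47 and 0.867 CPM in control. The difference between the cultivars was not tested, because the rule used the BR-IRGA 409 values.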

How the results depend on the processing

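The 50 members at an unadjusted p below 0.05 became 77 with limma-voom (6.21% of all genes). They became 16 with only the IRGA 428 libraries (2.41%). Without 1 library they numbered 13 to 160, and the share of all genes ran from 2.06% to 12.2%. With the replicate block they were 137 (7.79% of all genes) and 0 were called. The labels do not say whether equal numbers pair the libraries. In IRGA 428, same-numbered heat and control deviations correlated at 0.250, 0.577 and −0.161 for replicates 1, 2 and 3. Differently numbered ones correlated at −0.655 to 0.422 there, with heat 1 and control 3 at 0.339. These few values cannot settle whether libraries were paired. The 0 called members became 1 with DESeq2 (0.0514% of all genes with an adjusted p). Without 1 library 0 to 11 were called, against 0.00% to 3.40% of all genes called higher. Without IRGA 428 control 3 and heat 1 they numbered 12, against 2.64% of all genes called higher. The median log2 fold change stayed positive, at 0.70 to 1.97 without 1 library. In these fits 185 to 192 members were positive, against 47.8% to 51.7% of all genes. Without 1 IRGA 428 library, 16 to 149 members had every heat library above every control library, against 5.11% to 14.1% of all genes. In a choice made after seeing the data, 164 did so without control 3 and heat 1, against 23.0% of all genes. The rule found 354 genes at a fold of 3, 80 at a fold of 6 and 165 to 279 without 1 library. Of 305 values for 14 named genes, 7 changed sign. MH08g0325800 gave −0.042 with limma-voom and −4.27 without IRGA 428 heat 1, with 5.77 the highest value (without control 3). MH08g0527800 gave −0.34 with limma-voom, −0.046 with the replicate block, −0.09 without IRGA 428 control 1, −0.39 without control 2 and −4.27 without heat 1, with 4.57 the highest (without control 3). The cause was not tested. In IRGA 428 control 1, 91 of 193 members had under 10 counts.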
